A study of Mus musculus with 6 samples.

Results

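The coagulation and fibrinolysis genes are a list of 38 genes, chosen by name, that encode the fibrinogen chains, the clotting factors, their inhibitors and the enzymes that dissolve clots. The list was drawn up with earlier results of these data known, so the shares of it that were called are description only. All 38 had a row among the 23284 genes of the count files, and the 36 with a mean of at least 0.5 CPM (counts of a gene per 1000000 counts of the library, with the library's total scaled by TMM) over the 6 mice were used. The 2 left out were F13a1, with between 3 and 16 counts in a library and a mean of 0.267 CPM, and Serpina5, with between 0 and 2 counts and a mean of 0.0551 CPM. The members nearest above the limit were Plaur (0.833 CPM), Plat (0.848 CPM) and Procr (0.993 CPM). Their level was measured by RNA-seq of whole liver from C57BL/6 mice aged 8 weeks. In the vehicle group 3 mice, fasted overnight, received vehicle, and in the FGF19 group 3 mice, fasted in the same way, received FGF19 at 1 mg/kg, and in both groups the fast went on until the livers were taken after 6 h. The labels name no transgene or deletion. FGF19 is the human counterpart of mouse FGF15, a hormone released by the gut in response to bile acids, and no group received another protein, so an effect of FGF19 itself and of any injected protein cannot be told apart.

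Blood clots through a chain of plasma proteases, most of them made by hepatocytes, in which each factor cleaves and so activates the next until thrombin converts fibrinogen to fibrin. Inhibitors of the serpin family and the protein C pathway hold the chain in check, and plasmin, made from plasminogen, later dissolves the fibrin. Fibrinogen is also a classical acute phase protein, whose synthesis in the liver rises during inflammation.

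The libraries held between 18994654 and 20799563 counts in vehicle-treated mice and between 21186309 and 22920056 in FGF19-treated mice. For a gene with no count, counting error alone leaves room for 3 counts, equal to 0.136 to 0.159 CPM in these libraries. The summed level of 10 hepatocyte genes was between 116221 and 121405 CPM with vehicle and between 106916 and 117559 CPM with FGF19. Most of it was Alb, at means of 69274 and 66314 CPM. None of the 10 was called changed, which does not show that they were unchanged. Apob, Tat and Pck1 had log2 fold changes above 0, up to 0.39 for Tat. The others were below 0, down to -0.39 for Cyp2e1 (edgeR adjusted p = 0.0645). FGF19 replicate 3 stood apart by transcript length. Relative to the mean of the other FGF19 libraries, its median log2 ratio was 0.18 among the shortest of 9152 genes (exons of up to 1840 bases) and -0.23 among the longest (from 4416 bases). The same medians in the vehicle libraries lay between -0.02 and 0.01 and between -0.07 and 0.03. Results that change without this library are given both ways. In whole liver, fewer cells of a type and less RNA per cell cannot be told apart.

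The fibrinogen genes rose to between 2.49 and 3.04 times their vehicle level after FGF19, Serpina10 rose 2.11-fold, and Cpb2 and F11 rose 1.54-fold and 1.48-fold. F13b fell to 0.782 of its vehicle level. These 7 were the members called, that is, whose p in edgeR's quasi-likelihood test was below 0.05 once adjusted by Benjamini-Hochberg over the 12559 genes tested (7.41% of which were called). The 6 called higher were 16.7% of the 36 members, where 4.56% of all genes tested were called higher. The 1 called lower was 2.78% of the members, where 2.84% of all genes tested were called lower, so the share called lower was near the background. The groups did not overlap, with FGF19 higher, in 8 of the 36 members (22.2%, against 14.5% of all genes tested) and, with FGF19 lower, in 6 (16.7%, against 13.8%). The members were more abundant than most genes, with a median level of 208 CPM where the median of all genes tested was 15.3 CPM. The median log2 fold change of the 36 was -0.06, where that of all genes tested was 0.00, and 20 of the 36 were below 0. Of the 29 members that were not called, 27 lay within 0.5 of 0 on the log2 scale. Without FGF19 replicate 3, 7 members were called higher (8.01% of all genes) and 4 lower (7.3% of all genes). The latter were F13b, F7, Serpinc1 and Proc, and the gain among the former was Procr. With the trend on exon length removed from each library, 6 members were called higher (5.34% of all genes) and 1 lower (4.4%).

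**Figure D1:**
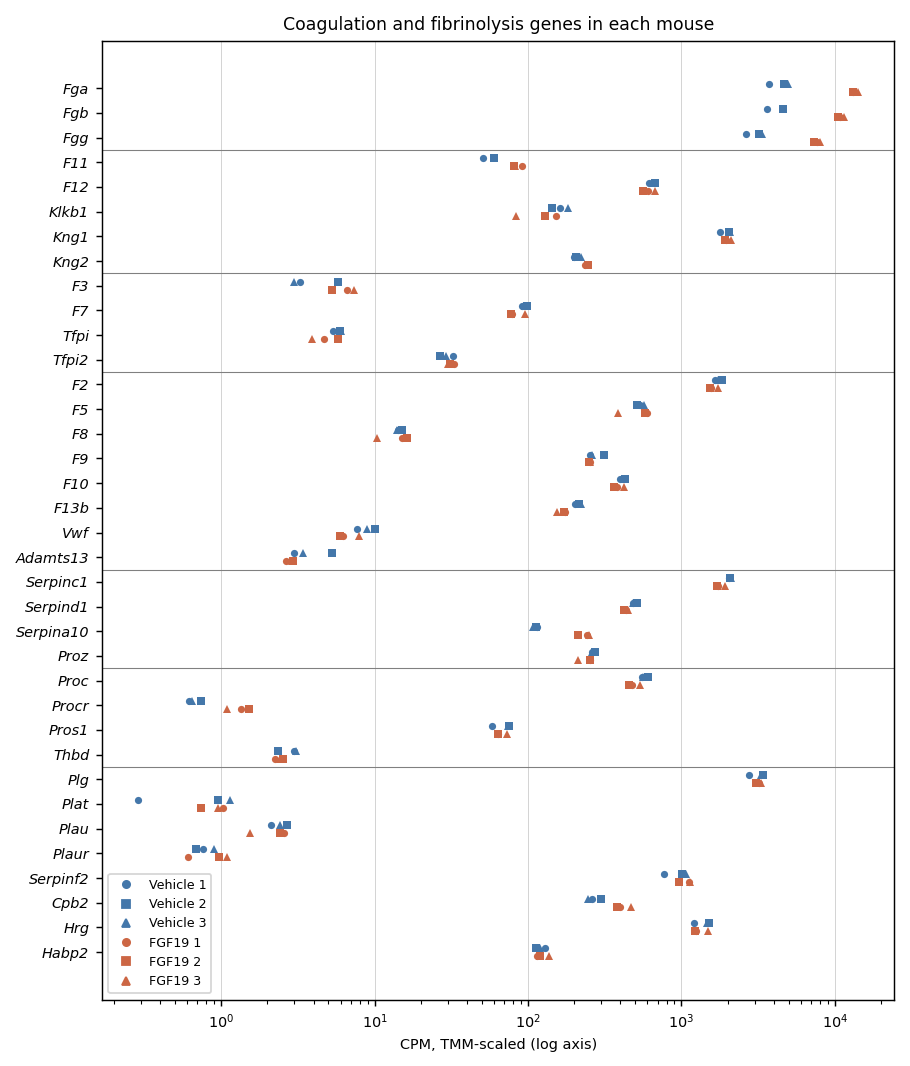
Level of each of the 36 members in each mouse, as CPM on a log axis, with vehicle in blue, FGF19 in orange, a symbol for each replicate number and lines between the functional groups. The 3 fibrinogen genes, F11, Serpina10 and Cpb2 sit to the right of every vehicle-treated mouse after FGF19, while most other members overlap or nearly overlap.

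Fibrinogen is built from the alpha, beta and gamma chains, encoded by Fga, Fgb and Fgg. The genes lie together on chromosome 3 of mm9 within 41.9 kb, Fgg from 82811818 to 82818971, Fga from 82830075 to 82837539 and Fgb from 82846227 to 82853712. Fga, the alpha chain, was at 3736, 4642 and 4933 CPM in vehicle replicates 1, 2 and 3 and at 13105, 13164 and 14260 CPM in FGF19 replicates 1, 2 and 3. Vehicle replicate 1 was the lowest, and the lowest FGF19-treated mouse was far above the highest vehicle-treated mouse. The log2 fold change of Fga was 1.61 (SE, the standard error of the fit, 0.127, with an adjusted p of 0.000179 in edgeR). Fgb, the beta chain, was at 3597, 4632 and 4607 CPM with vehicle and at 10861, 10432 and 11453 CPM with FGF19. Its log2 fold change was 1.35 (SE 0.124, edgeR adjusted p = 0.000335). Fgg, the gamma chain, was at 2638, 3220 and 3368 CPM with vehicle and at 7632, 7334 and 8026 CPM with FGF19. Its log2 fold change was 1.32 (SE 0.117, edgeR adjusted p = 0.000291). For all 3 chains the groups did not overlap, vehicle replicate 1 was the lowest mouse and FGF19 replicate 3 the highest. These positions were not particular to fibrinogen. Vehicle replicate 1 was the lowest of its group in 26 of the 36 members, and FGF19 replicate 3 the highest of its group in 22. All 3 chains were also called in each of the 6 fits that left out a library.

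As a share of all counts, the 3 genes together took 1.01%, 1.24% and 1.29% in vehicle replicates 1, 2 and 3, with exact 95% binomial intervals of 1.002% to 1.011%, 1.237% to 1.247% and 1.287% to 1.297%. After FGF19 the share was 3.18%, 3.18% and 3.25%, with intervals of 3.168% to 3.183%, 3.171% to 3.186% and 3.246% to 3.26%. These intervals cover counting error only, treat reads as independent although mates were counted separately, and are far narrower than the spread between vehicle-treated mice. The means were 1.18% ± 0.152 (SD, n = 3) and 3.2% ± 0.044 (SD, n = 3), a ratio of 2.71, and every FGF19-treated mouse was above every vehicle-treated mouse. The two-sided exact permutation test gave p = 0.1, the smallest value that 3 against 3 mice allow. Per length, as CPM divided by exon length, Fgb ranked 26 among the 23284 genes listed in vehicle-treated mice and 9 in FGF19-treated mice. Fgg moved from rank 35 to 15, and Fga from 59 to 19.

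The proportion of the alpha chain to the other chains was higher in every FGF19-treated mouse. The count of Fga per base of exon relative to that of Fgb was 0.486, 0.469 and 0.501 in vehicle replicates 1, 2 and 3 and 0.565, 0.591 and 0.583 in FGF19 replicates 1, 2 and 3. On the log2 scale this ratio was -1.04 ± 0.0478 (SD, n = 3) and -0.79 ± 0.0332 (SD, n = 3), a difference of 0.26 with no overlap between the groups. Relative to Fgg, Fga stood 0.29 higher on the log2 scale after FGF19, at 0.642, 0.653 and 0.664 in the vehicle-treated mice and at 0.778, 0.814 and 0.805 in the FGF19-treated mice. Both differences gave p = 0.1 in the two-sided exact permutation test, the smallest value it allows here. The ratio of Fgb to Fgg was 1.32, 1.39 and 1.32 with vehicle and 1.38, 1.38 and 1.38 with FGF19, a log2 difference of 0.04 (two-sided exact permutation test, p = 0.4), and the groups overlapped. The levels per length of Fga depend on which of its transcripts are made, since its exons merge to 3360 bases and its 3 coding transcripts in GENCODE vM1 are 654 to 2637 bases long. The exons of Fgb and Fgg merge to 1573 and 1523 bases, so the ratios to Fga are also open to the trend on exon length. With that trend removed the log2 fold changes of Fga, Fgb and Fgg were 1.58, 1.38 and 1.35, which lie closer together. The ratios themselves were not computed in that way.

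**Figure D2:**
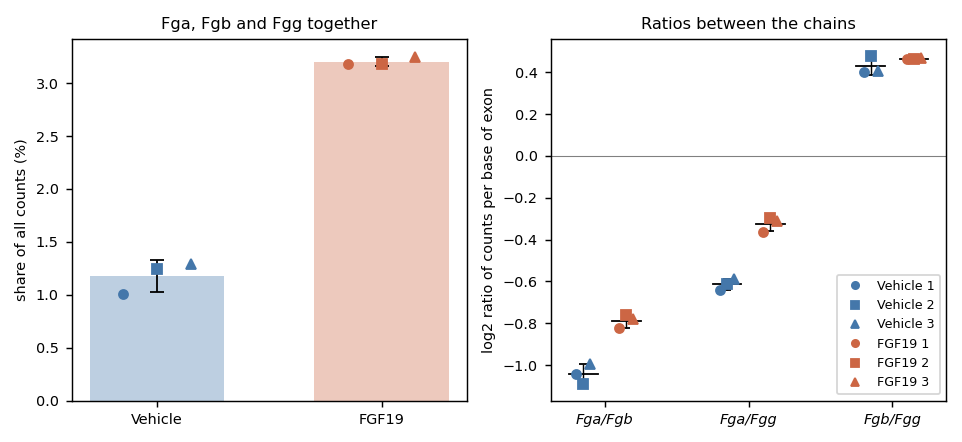
Left, share of all counts on Fga, Fgb and Fgg together, in percent, as bars for the group mean, error bars for the SD and points for each mouse (3 vehicle, 3 FGF19). Right, log2 ratio of counts per base of exon for each pair of chains, with a point per mouse and the mean ± SD. The share and the ratios of Fga to Fgb and to Fgg are higher in every FGF19-treated mouse, and the ratio of Fgb to Fgg overlaps.

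Because the 3 genes moved together, the 250 bases before the start of each are shown, 5′ to 3′ on the strand of the gene, from RefSeq on GRCm38.p6 (a later build than the mm9 of the counts). Capitals mark matches on either strand to CTGGGAA (the core of the IL-6 response element of fibrinogen genes), TTCNNNGAA (a STAT motif), TTGCNNAA (a C/EBP motif) or GTTAAT (a half-site of HNF1), where N is any base. Fga is at chr3:83025903-83026152 on the plus strand, Fgb at chr3:83049864-83050113 on the minus strand and Fgg at chr3:83007474-83007723 on the plus strand.
Fga: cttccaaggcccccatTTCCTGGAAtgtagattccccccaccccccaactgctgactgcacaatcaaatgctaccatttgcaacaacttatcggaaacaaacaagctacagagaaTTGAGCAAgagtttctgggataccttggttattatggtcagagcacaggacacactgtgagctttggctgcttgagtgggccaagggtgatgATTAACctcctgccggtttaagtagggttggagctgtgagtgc
Fgb: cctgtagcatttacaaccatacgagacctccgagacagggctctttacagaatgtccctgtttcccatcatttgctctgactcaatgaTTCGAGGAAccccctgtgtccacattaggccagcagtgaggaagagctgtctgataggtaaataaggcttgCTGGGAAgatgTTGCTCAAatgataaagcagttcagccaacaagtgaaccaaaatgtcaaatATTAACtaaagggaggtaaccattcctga
Fgg: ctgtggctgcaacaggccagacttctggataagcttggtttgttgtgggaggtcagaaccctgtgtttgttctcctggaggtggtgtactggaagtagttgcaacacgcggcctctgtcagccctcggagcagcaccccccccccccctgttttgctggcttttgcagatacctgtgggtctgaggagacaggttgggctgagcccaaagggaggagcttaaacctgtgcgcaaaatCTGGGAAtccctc
Fgb held all 4 motifs, with CTGGGAA from 91 to 85 bases and TTGCTCAA from 80 to 73 bases before the start. Fga held TTCCTGGAA from 234 to 226, TTGAGCAA from 135 to 128 and ATTAAC from 43 to 38 bases before the start, and Fgg held only CTGGGAA, from 13 to 7 bases before it. No marked matches overlapped within these windows.

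Of the 36 members, 28 had at least 1 entry in this RefSeq promoter table, and Kng1, Vwf, Serpina10, Proc, Thbd, Plg, Plat and Plau did not. The 28 had 31 promoters in all. TTGCNNAA was found in 10 of the 31 (32.3%), where 9.56% of the 32851 promoters of the same length held it, and these lay before F11, F9, Fga, Fgb, Habp2, Hrg, Klkb1, Kng2, Plaur and Procr. GTTAAT was found in 7 of the 31 (22.6%, against 6.43% of all promoters), CTGGGAA in 6 (19.4%, against 9.1%) and TTCNNNGAA in 4 (12.9%, against 7.02%). The last motif searched, TATAAA, was found before the genes Klkb1 and Tfpi (6.45%, against 12.4%). A match describes these letters only, and most members that held a motif were not called in these mice. F9, which encodes clotting factor IX, held 3 of the motifs and had a log2 fold change of -0.13 (SE 0.0987, edgeR adjusted p = 0.489).

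The contact system starts clotting on charged surfaces and releases bradykinin. F11, which encodes factor XI, was its called member, on chromosome 8 of mm9 from 46326524 to 46347385. It was at 51.0, 60.4 and 60.1 CPM in vehicle replicates 1, 2 and 3 and at 91.3, 80.8 and 82.3 CPM in FGF19 replicates 1, 2 and 3. Every FGF19-treated mouse was above every vehicle-treated mouse, with a log2 fold change of 0.57 (SE 0.0984, edgeR adjusted p = 0.00933). Klkb1, which encodes plasma prekallikrein, lies 7.42 kb from F11 and did not share its rise. It was at 162, 144 and 183 CPM with vehicle and at 152, 130 and 83.0 CPM with FGF19, where FGF19 replicate 3 was the lowest mouse by far and the groups overlapped. Its log2 fold change was -0.42 (SE 0.193, edgeR adjusted p = 0.233) and -0.20 without FGF19 replicate 3. F12, which encodes factor XII, was at 650 ± 30.3 CPM with vehicle and 614 ± 56.8 CPM with FGF19 (SD, n = 3 each). The kininogen genes encode the precursors of bradykinin. Kng1 was at 1964 ± 153 CPM and 1995 ± 95.9 CPM (SD, n = 3 each), with a log2 fold change of 0.02. Kng2 was at 201, 207 and 221 CPM with vehicle and at 236, 248 and 245 CPM with FGF19, which did not overlap, and its log2 fold change of 0.21 did not pass the same edgeR test (adjusted p = 0.155). The transcripts of Kng1 and Kng2 resemble each other, and 4.89% of the 100-base windows of Kng1 and 5.74% of those of Kng2 occur in the other gene. Of the windows of Klkb1, 7.42% occur in Cyp4v3. How many reads this left out of the counts was not tested.

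The extrinsic pathway begins when tissue factor, encoded by F3, binds factor VII, encoded by F7, and is blocked by the tissue factor pathway inhibitors. None of its 4 members was called. F3 was at 3.24, 5.77 and 2.98 CPM with vehicle and at 6.60, 5.28 and 7.33 CPM with FGF19. The groups overlapped through vehicle replicate 2 and FGF19 replicate 2, and the log2 fold change was 0.69 (SE 0.253, edgeR adjusted p = 0.141). Without vehicle replicate 2 it was 1.04 and was called (adjusted p = 0.026 in edgeR). F7 was at 91.9, 98.3 and 94.9 CPM with vehicle and at 78.9, 77.8 and 96.2 CPM with FGF19, where FGF19 replicate 3 lay among the vehicle-treated mice. Its log2 fold change was -0.17 (adjusted p = 0.355 in edgeR) and, without that library, -0.27 and called (adjusted p = 0.0355). Tfpi was at 5.76 ± 0.367 CPM and 4.78 ± 0.954 CPM, and Tfpi2 at 29.3 ± 2.81 CPM and 31.2 ± 1.35 CPM, with vehicle and FGF19 in that order (SD, n = 3 each).

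**Figure D3:**
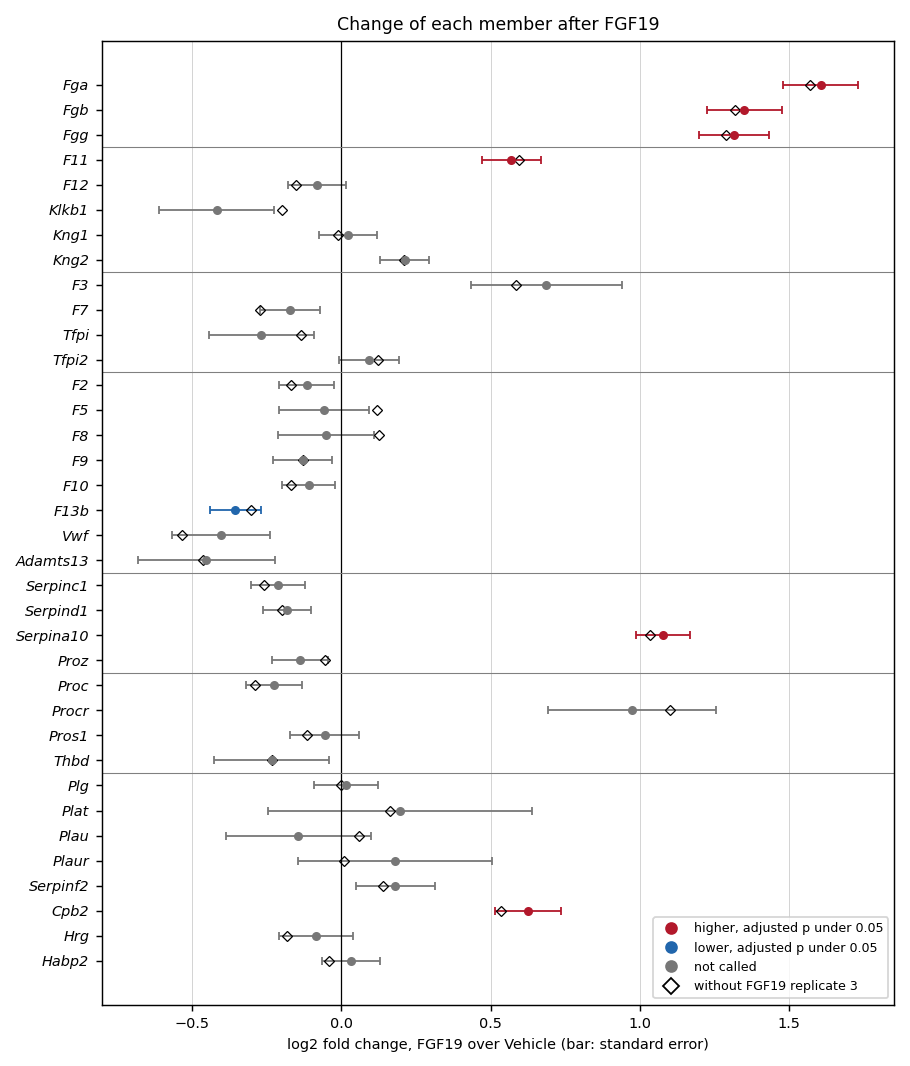
Log2 fold change of FGF19 over vehicle for each of the 36 members (filled circles, error bars for the standard error of edgeR's quasi-likelihood fit), with the value without FGF19 replicate 3 as open diamonds. The fibrinogen genes lie between 1.32 and 1.61 and Serpina10 at 1.08, and all 8 members of the tenase, prothrombinase and cross-linking group lie at or below -0.05 with all mice, while F5 and F8 lie above 0 without that library.

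Factors VIII and IX form the tenase complex, factors X and V the prothrombinase complex that makes thrombin from prothrombin, and factor XIII cross-links fibrin. Of the 8 members used from this group 1 was called, and all 8 had log2 fold changes below 0, between -0.45 and -0.05. F13b encodes the carrier subunit of factor XIII and lies on chromosome 1 of mm9 from 141398284 to 141420333. It was at 202, 215 and 222 CPM in vehicle replicates 1, 2 and 3 and at 174, 171 and 155 CPM in FGF19 replicates 1, 2 and 3. The groups did not overlap, with a log2 fold change of -0.36 (SE 0.086, edgeR adjusted p = 0.0378). The call held in 1 of the 6 fits that left out a library, the fit without FGF19 replicate 3 (adjusted p = 0.0303), and in the other 5 the adjusted p was up to 0.165. It was also lost with the replicate number as a blocking factor (edgeR adjusted p = 0.13).

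F2, which encodes prothrombin, was at 1747 ± 83.9 CPM with vehicle and 1611 ± 105 CPM with FGF19 (SD, n = 3 each), with a log2 fold change of -0.12 (adjusted p = 0.513 in edgeR). F10, which encodes factor X, was at 419 ± 16.7 CPM and 388 ± 29.3 CPM, and F9 at 276 ± 32.7 CPM and 252 ± 2.1 CPM (SD, n = 3 each). F5 and F8, which encode the cofactors V and VIII, have the long exon lengths of 7406 and 7507 bases. F5 was at 534, 516 and 570 CPM with vehicle and at 594, 575 and 387 CPM with FGF19. F8 was at 14.3 ± 0.559 CPM with vehicle and 13.8 ± 3.07 CPM with FGF19 (SD, n = 3 each), with 10.4 CPM in FGF19 replicate 3. In both genes FGF19 replicate 3 was the lowest mouse and the other FGF19-treated mice were at or above the vehicle-treated mice. Their log2 fold changes were -0.06 and -0.05, and 0.12 and 0.13 without FGF19 replicate 3, none of which passed the test. Of the exon length of F5, 3.54% is shared with the opposite-strand gene Gm16548, and the counting did not use strand. Vwf encodes von Willebrand factor, the carrier of factor VIII, and Adamts13 the protease that trims it. Vwf was at 8.89 ± 1.22 CPM and 6.71 ± 1.06 CPM, and Adamts13 at 3.89 ± 1.19 CPM and 2.83 ± 0.156 CPM (SD, n = 3 each). Neither was called, with adjusted p of 0.177 and 0.278 in edgeR. Of the 100-base windows of Adamts13, 2.49% occur in Fmo1 and 0.458% in Cpne8.

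Serpina10 encodes the protein Z-dependent protease inhibitor, a serpin that blocks factors Xa and XIa, and lies on chromosome 12 of mm9 from 104854885 to 104869615. It was at 114, 112 and 108 CPM in vehicle replicates 1, 2 and 3 and at 242, 213 and 251 CPM in FGF19 replicates 1, 2 and 3. The vehicle-treated mice were close together and every FGF19-treated mouse was well above them. The log2 fold change was 1.08 (SE 0.0901, edgeR adjusted p = 0.000228), and the call held in all 6 fits that left out a library. Proz, which encodes its cofactor protein Z, did not rise with it. Proz was at 260, 272 and 260 CPM with vehicle and at 252, 255 and 213 CPM with FGF19, so every FGF19-treated mouse was below the vehicle-treated mice, with FGF19 replicate 3 the farthest below. Its log2 fold change was -0.14 (SE 0.094, edgeR adjusted p = 0.432), and -0.05 without FGF19 replicate 3.

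Among the members, the serpins that block thrombin were not called with all mice. Serpinc1, which encodes antithrombin, was at 2030, 2084 and 2099 CPM with vehicle and at 1731, 1714 and 1913 CPM with FGF19. Serpind1, which encodes heparin cofactor II, was at 485, 510 and 486 CPM with vehicle and at 434, 424 and 447 CPM with FGF19. In both genes the FGF19-treated mice lay below all vehicle-treated mice. The log2 fold changes were -0.21 and -0.18, with adjusted p of 0.194 and 0.209 in edgeR. Without FGF19 replicate 3 Serpinc1 was called lower, at -0.26 (adjusted p = 0.0478 in edgeR), and Serpind1 was not (adjusted p = 0.0975).

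In the protein C pathway, thrombin bound to thrombomodulin (Thbd) on endothelium activates protein C (Proc), with help from its receptor (Procr), and active protein C with its cofactor protein S (Pros1) degrades factors V and VIII. None of the 4 genes was called with all mice. Proc was at 552, 607 and 560 CPM with vehicle and at 477, 458 and 536 CPM with FGF19. Its groups did not overlap, and its log2 fold change was -0.22 (SE 0.0938, edgeR adjusted p = 0.19). Without FGF19 replicate 3 it was -0.29 and was called lower (adjusted p = 0.0407 in edgeR). Procr was a low gene, at 0.619, 0.742 and 0.645 CPM with vehicle and at 1.35, 1.52 and 1.09 CPM with FGF19. Every FGF19-treated mouse was above every vehicle-treated mouse, and the log2 fold change of 0.97 did not pass with all mice (SE 0.282, edgeR adjusted p = 0.0725). Without FGF19 replicate 3 it was 1.10 and was called (adjusted p = 0.041 in edgeR). Pros1 was at 69.2 ± 9.66 CPM and 66.5 ± 5.16 CPM, and Thbd at 2.80 ± 0.411 CPM and 2.39 ± 0.148 CPM, with vehicle and FGF19 in that order (SD, n = 3 each).

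The plasminogen system dissolves fibrin, and Cpb2 restrains it. Cpb2 encodes thrombin-activatable fibrinolysis inhibitor, a carboxypeptidase that removes the plasminogen binding sites of fibrin, and lies on chromosome 14 of mm9 from 75642094 to 75683360. It was at 260, 300 and 248 CPM in vehicle replicates 1, 2 and 3 and at 398, 381 and 468 CPM in FGF19 replicates 1, 2 and 3. The groups did not overlap, and the log2 fold change was 0.63 (SE 0.112, edgeR adjusted p = 0.0106). Without vehicle replicate 3 it was 0.57 and was not called (adjusted p = 0.0603 in edgeR), and in the other 5 fits that left out a library the call held.

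The other 7 members of this system were not called. Plg, which encodes plasminogen, was at 2759, 3404 and 3327 CPM with vehicle and at 3226, 3078 and 3298 CPM with FGF19, and its log2 fold change was 0.02 (SE 0.107). Serpinf2, which encodes alpha-2-antiplasmin, the main inhibitor of plasmin, was at 773, 1007 and 1071 CPM with vehicle and at 1124, 962 and 1143 CPM with FGF19. Vehicle replicate 1 was low in both genes, and the groups overlapped. Hrg, which encodes the plasminogen-binding histidine-rich glycoprotein, was at 1402 ± 168 CPM and 1322 ± 157 CPM, and Habp2, a protease that activates urokinase, at 121 ± 8.78 CPM and 124 ± 11.4 CPM (SD, n = 3 each). Of the exon length of Habp2, 2.32% is shared with the opposite-strand gene Nrap, and 5.06% of its 100-base windows occur in Nrap. The activators themselves were low in liver. Plat, the tissue-type activator, was at 0.793 ± 0.45 CPM and 0.903 ± 0.15 CPM, and Plau, urokinase, at 2.41 ± 0.303 CPM and 2.18 ± 0.556 CPM (SD, n = 3 each). Plaur, the urokinase receptor, was at 0.781 ± 0.104 CPM and 0.885 ± 0.25 CPM (SD, n = 3 each). The log2 fold changes of Plat, Plau and Plaur had wide standard errors of 0.44, 0.24 and 0.33, so small changes were not detectable in these genes. Plat had 6, 18 and 23 counts in vehicle replicates 1, 2 and 3. How far depth and the spread between mice each widened these errors was not tested.

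Genes that neighbour each other did not always move together. All 3 genes of the fibrinogen cluster were called higher. F7, F10 and Proz, which lie within 49.0 kb on chromosome 8 of mm9, were all not called and had log2 fold changes of -0.17, -0.11 and -0.14. Kng1, Kng2 and Hrg, from 22951145 to 23082151 on chromosome 16 of mm9, were not called either, whereas of F11 and Klkb1 only F11 was.

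Several low members are best known from cells other than hepatocytes, such as Vwf, Thbd, Procr, Tfpi, F8 and Plat from endothelium and Plau and Plaur from myeloid cells. Of 10 endothelial markers 1 was called, Cdh5 (higher, log2 fold change 0.43), and their summed level was between 349 and 374 CPM with vehicle and between 346 and 362 CPM with FGF19. Of 9 Kupffer cell or monocyte markers tested 2 were called, Marco and Cd68, both higher, with sums between 190 and 237 CPM and between 199 and 232 CPM. Neutrophil markers summed to between 2.48 and 3.87 CPM with vehicle and between 6.29 and 9.28 CPM with FGF19, and Mpo had at most 3 counts in every library. Of the 3 tested, S100a9 was called higher, from a low mean of 0.497 CPM with vehicle to 2.24 CPM with FGF19. Csf3r and Cxcr2 were not called (adjusted p = 0.0773 and 0.515 in edgeR). Platelet markers summed to between 3.91 and 5.51 CPM and between 3.58 and 5.11 CPM, with Gp1bb and Gp6 at 3 counts or fewer in every library. Stellate cell markers summed to between 225 and 312 CPM and between 213 and 254 CPM, with Colec11 called lower. Biliary, erythroid and lymphocyte markers had no called gene, and erythroid markers summed to between 57.8 and 79.3 CPM and between 43.6 and 57.6 CPM. Whether the higher neutrophil sum has a part in the levels of the low members was not tested.

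Beyond the 38, a list of 45 other genes of the pathway was examined, with 44 in the files and 35 tested. Of these 6 were called higher (17.1%, against 4.56% of all genes) and 2 lower (5.71%, against 2.84%), with a median log2 fold change of 0.11. The list was written with earlier results of these data known, so these shares describe it and are no support for a rise of the pathway. Without FGF19 replicate 3, 10 were called higher (8.01% of all genes) and 2 lower (7.3% of all genes). The gains were Pzp (adjusted p = 0.009 in edgeR), Lman1 (0.00451), Masp1 (0.0231) and Gas6 (0.0401) among those higher and Asgr1 (0.0292) among those lower, while Serpine2 lost its call (0.0605). Fgl1, a liver protein related to fibrinogen, was at 285, 353 and 318 CPM with vehicle and at 658, 757 and 844 CPM with FGF19. Its log2 fold change of 1.24 (SE 0.12, edgeR adjusted p = 0.000465) was close to those of Fgb and Fgg. Tgm2, a tissue transglutaminase that cross-links proteins as factor XIII does, rose from 110 ± 8.3 CPM to 281 ± 40.9 CPM (SD, n = 3 each), with a log2 fold change of 1.36 (adjusted p = 0.000252 in edgeR).

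The protein disulfide isomerases Pdia3 and P4hb, folding enzymes of the endoplasmic reticulum that also act in thrombus formation, rose by 0.93 and 0.52 on the log2 scale (adjusted p = 0.00154 and 0.0104 in edgeR), and P4hb was called in 4 of the 6 fits that left out a library. Anxa2, a surface receptor for plasminogen and Plat, rose 1.41-fold (log2 fold change 0.49, SE 0.12, edgeR adjusted p = 0.0386), and was called in 1 of the 6 fits that left out a library. A2m, an inhibitor of many proteases, had 4, 2 and 3 counts with vehicle and 13, 31 and 73 counts with FGF19, and was called higher at a mean below 1 CPM. Among the fits that left out a library A2m was called in 3, with an adjusted p of up to 0.0838 in edgeR. It passed the filter on low counts only through the FGF19 group, so its call among the 6 higher is no support for a rise of the list, and with a filter of 1 CPM in every library 5 genes were called higher. Asgr2, a subunit of the receptor that clears desialylated plasma proteins, fell from 221 ± 13.6 CPM to 167 ± 14.9 CPM (SD, n = 3 each, adjusted p = 0.0351 in edgeR). Serpine2, a thrombin-inhibiting serpin, fell from 4.67 ± 0.852 CPM to 2.73 ± 0.385 CPM (SD, n = 3 each, adjusted p = 0.0459). Asgr2 was called in 1 and Serpine2 in 0 of the 6 fits of that kind. Ggcx and Vkorc1, which carry out the vitamin K-dependent modification that factors VII, IX and X need, were not called, nor were Lman1 and Mcfd2, which carry factors V and VIII through the secretory pathway. Lman1 was at 189, 194 and 180 CPM with vehicle and at 254, 271 and 198 CPM with FGF19, which did not overlap, and FGF19 replicate 3 was the lowest of its group.

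**Figure D4:**
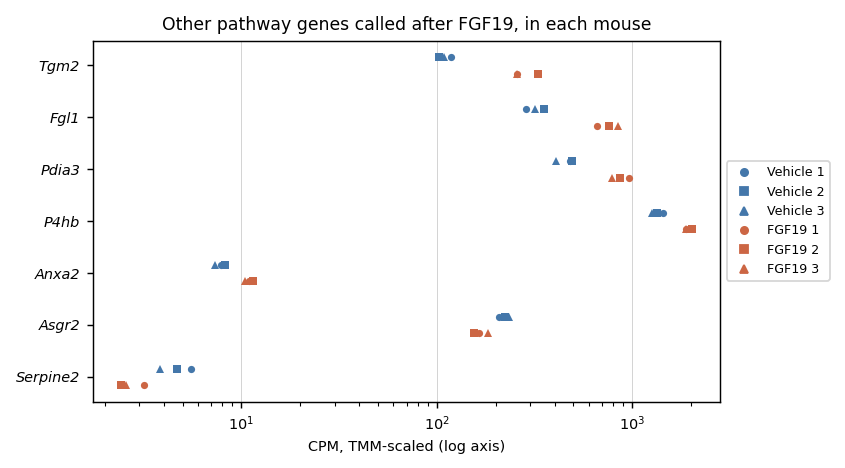
Level of the 7 other pathway genes that were called and had a mean of at least 1 CPM, in each mouse, as CPM on a log axis (vehicle blue, FGF19 orange, a symbol per replicate number). Tgm2 moves from between 102 and 118 CPM in vehicle-treated mice to between 257 and 328 CPM in FGF19-treated mice. None of the 7 genes shows overlap between the groups, but they were picked by the test between these groups. Of all 35 tested, 31.4% did not overlap with FGF19 higher (14.5% of all genes) and 11.4% with FGF19 lower (13.8% of all genes).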

How the data were processed

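Liver RNA of 3 vehicle-treated and 3 FGF19-treated mice was analysed, with groups and replicate numbers from the sample labels. The authors aligned the reads with STAR to mm9 and deposited raw counts of reads per gene, made with featureCounts 1.5.2 on exons without strand, counting mates separately and leaving out reads with several alignments. The submitters' processing notes also name Trimmomatic 0.36 and STAR 2.5.3a, where the methods give another STAR version. The deposited table of the authors' own comparison (log fold changes, mean log CPM, p-values, FDR) was not used.

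The members and lists were chosen with earlier results of these data known. Counts were filtered with filterByExpr, scaled by TMM and compared with the quasi-likelihood test of edgeR 4.0.16 in R 4.3.3 without covariates, and Benjamini-Hochberg adjustment covered all 12559 genes tested. The study used an edgeR pipeline with p under 0.01. Genes were called at an adjusted p under 0.05. The standard error is the log2 fold change divided by the square root of the F statistic. Every member with a mean of at least 0.5 CPM is named, and of the other pathway genes those called with a mean of at least 1 CPM (A2m, Ggcx, Vkorc1, Lman1, Mcfd2, Pzp, Masp1, Gas6 and Asgr1 were added after their values were seen). Plgrkt has no row by that name. A further pathway gene is not reported here. CPM used TMM-scaled library sizes, and levels per length were computed from the exon length in the files. For all 36 members the position overlapped the gene of that name in GENCODE vM1 on NCBIM37, the assembly of mm9. The fits were tested on simulated data. Pairs of libraries of a group differed by more than sampling noise (chi-square per degree of freedom 8.25 to 39.4), so 6 samples were counted. The labels do not say whether mice were housed or treated together, and the p-values measure the spread between these mice. Alternatives were DESeq2 1.42.0, limma-voom (limma 3.58.1), the likelihood ratio test, no TMM scaling, other filters and thresholds, the replicate number as a blocking factor, leaving out each library and, added after the data were seen, removal of the trend on exon length.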

Additional observations from a re-analysis of the deposited data

How the results depend on the processing

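There were 6 members called higher, as in the report, in DESeq2, limma-voom, no TMM scaling, no filter, a filter of 1 CPM, the block and removal of the length trend, and 7 with the likelihood ratio test. With each library left out there were between 5 and 7 higher and between 0 and 4 lower members, between 3 and 10 higher and between 0 and 2 lower other pathway genes, and a member median between -0.13 and -0.02. The 4 lower members and the 10 higher other pathway genes came without FGF19 replicate 3, the 5 higher members and the 3 higher other pathway genes without vehicle replicate 3. Calls over the whole gene set shifted in the same direction. Dropping that FGF19 library raised them to 1016 higher and 927 lower genes, where all mice gave 573 and 357. Dropping that vehicle library cut them to 236 and 107. The likelihood ratio test called 780 and 579. These shifts in number were thus not particular to the lists. A threshold of 0.01 on the adjusted p left 5 higher and 0 lower members, and 3 higher and 0 lower other pathway genes. limma-voom and no TMM scaling each left 1 lower other pathway gene. The cause of these moves was not tested.

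With the replicate number as a replicate block there were 6 higher and 0 lower members, and 5 higher and 0 lower other pathway genes. Anxa2, Asgr2, Serpine2 and F13b lost their calls there (adjusted p = 0.113, 0.0799, 0.0706 and 0.13 in edgeR), with log2 fold changes of 0.49, -0.40, -0.77 and -0.36 under the block against 0.49, -0.40, -0.78 and -0.36 without it. Over all genes the block left 370 higher and 164 lower calls, from 573 and 357. Same-numbered mice did not deviate together (r = -0.03, -0.18 and -0.18 for numbers 1, 2 and 3), and none correlated best with its own number, so they were taken to share only a number.

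Across the fits that left out a library, log2 fold changes that changed sign ranged from -0.0412 to 0.0615 for Kng1, -0.17 to 0.12 for F5, -0.17 to 0.13 for F8, -0.17 to 0.0092 for Pros1, -0.0728 to 0.0719 for Plg, -0.22 to 0.57 for Plat, -0.28 to 0.0582 for Plau and -0.0413 to 0.0868 for Habp2, none called in any. With the length trend removed Kng1 and Plg turned to -0.0062 and -0.0091, and F13b kept its call (edgeR adjusted p = 0.0287).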
